A study of Mus musculus with 12 samples.

Results

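The genes described here are 32 genes of the cell cycle, chosen by name as genes that proliferating cells transcribe strongly. They are 32 of the 24499 gene symbols in the count table, and all 32 were among the 10714 genes that passed a filter on low counts. Of the 32, 12 act in DNA replication, namely Pcna, Mcm2, Mcm3, Mcm4, Mcm5, Mcm6, Mcm7, Tyms, Rrm1, Rrm2, Tk1 and Cdk2. Another 17 act in G2 and mitosis, namely Mki67, Top2a, Cdk1, Ccnb1, Ccnb2, Ccna2, Birc5, Ube2c, Aurka, Aurkb, Plk1, Bub1, Cdc20, Cenpa, Tpx2, Kif11 and Nusap1. The remaining 3 encode proteins that resting cells also make: the chromatin protein Hmgb2, the tubulin-binding protein stathmin (Stmn1) and the beta-tubulin Tubb5. The question was whether these genes differed between wildtype and APOE-KO mice, whether replication and mitosis genes differed alike, and how much they varied between libraries.

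RNA came from lymph nodes draining E0771-cOC tumours (E0771 is a mouse mammary carcinoma line) in C57BL6 mice, the wildtype group, and in APOE-KO mice, which lack apolipoprotein E. The nodes of both groups were taken on day 9 after tumour injection, digested, and enriched on CD11c beads. CD11c is an integrin of dendritic cells and some macrophages. There were 6 libraries per genotype. The sources used here do not give the age or sex of the mice, the Apoe allele or the strain background of the APOE-KO mice. No group without a tumour was analysed here, so both groups share the tumour, the day and the bead enrichment. The labels do not tie each library to an animal of its own. The p-values therefore rest on library-to-library spread, part of which may be technical. The preparation is a mixture of cells, and in bulk RNA fewer dividing cells cannot be told apart from less RNA per dividing cell.

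A cell that enters the cycle loads the MCM helicase, encoded by Mcm2 to Mcm7, onto its origins of replication. Cyclin-dependent kinases then fire these origins, and enzymes of nucleotide synthesis supply the building blocks while PCNA clamps the polymerases to DNA. Genes of this first wave are classically controlled by E2F factors through E2F sites in their promoters. Genes of G2 and mitosis come up later and are classically controlled by the DREAM and MuvB complexes through a cell cycle homology region (CHR), often together with CCAAT boxes bound by NF-Y. In lymph nodes, activated lymphocytes and germinal centre B cells divide rapidly. Conventional dendritic cells also divide at a low rate there, whereas mature migratory dendritic cells have largely left the cycle.

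The promoters of Mcm6, Cdk1 and Top2a are shown because Mcm6 and Cdk1 had the 2 smallest p-values among the 32 genes and Top2a is the reference gene of the correlations below. They are RefSeq windows of GRCm38.p6, 250 bases before to 50 bases after the annotated start, written 5′ to 3′ along the gene. Capitals mark matches to an E2F, CHR or CCAAT motif on either strand. The window of Mcm6 is chr1:128359656-128359955 on the minus strand, that of Cdk1 chr10:69352863-69353162 on the minus strand, and that of Top2a chr11:99024140-99024439 on the minus strand.
Mcm6: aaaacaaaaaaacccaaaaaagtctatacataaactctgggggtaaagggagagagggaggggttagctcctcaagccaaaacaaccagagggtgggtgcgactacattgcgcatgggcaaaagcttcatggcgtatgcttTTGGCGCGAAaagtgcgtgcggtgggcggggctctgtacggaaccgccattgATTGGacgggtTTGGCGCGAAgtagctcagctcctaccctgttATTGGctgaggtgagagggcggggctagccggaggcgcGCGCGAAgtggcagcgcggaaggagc
Cdk1: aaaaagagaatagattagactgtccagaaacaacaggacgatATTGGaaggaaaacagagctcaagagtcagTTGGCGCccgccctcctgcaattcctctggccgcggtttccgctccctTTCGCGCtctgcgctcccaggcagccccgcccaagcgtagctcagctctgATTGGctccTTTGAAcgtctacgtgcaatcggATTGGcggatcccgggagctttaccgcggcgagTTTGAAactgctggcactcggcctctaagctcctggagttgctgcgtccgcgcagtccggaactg
Top2a: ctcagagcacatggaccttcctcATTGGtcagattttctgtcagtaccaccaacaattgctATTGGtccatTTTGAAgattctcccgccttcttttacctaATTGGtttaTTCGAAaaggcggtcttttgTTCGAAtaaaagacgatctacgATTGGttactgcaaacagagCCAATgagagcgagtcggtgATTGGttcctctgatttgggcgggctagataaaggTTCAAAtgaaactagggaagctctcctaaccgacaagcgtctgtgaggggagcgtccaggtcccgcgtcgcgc
The Mcm6 window held 5 E2F matches, 2 CCAAT matches and no CHR match. The Cdk1 window held 2 E2F, 2 CHR and 3 CCAAT matches. The Top2a window held 4 CHR and 6 CCAAT matches and no E2F match.

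The motifs searched were, for E2F, TTCCCGC or TTCGCGC or TTGGCGC or TTGCCGC, for CHR, TTTGAA or TTCGAA, and CCAAT itself. All were searched on both strands, E2F matches can overlap each other, and an E2F match can share bases with CCAAT. A RefSeq window was matched for 27 of the 32 genes, the others being Mcm4, Ccna2, Aurkb, Tpx2 and Stmn1. Of 11 replication genes with a window, 7 (63.6%) held an E2F match, against 3 of 14 mitosis genes (21.4%) and 10.9% of all 27025 genes with a window. CHR showed the opposite split, with 2 of 11 replication genes (18.2%), 11 of 14 mitosis genes (78.6%) and 21.7% of all genes. CCAAT was common to both classes, in 81.8% of replication and 85.7% of mitosis genes, against 41.1% of all genes. A match is a run of letters and not a shown binding site. The classes therefore differed in promoter sequence, which played no part in how the genes were assigned to them.

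Library totals ran from 2381477 to 4898360 counts, and the 32 genes together took 3560 counts in wildtype library 1 to 15950 in wildtype library 3. Levels are CPM, the share of a library that a gene took, on scaled library sizes, and 3 counts in a library stand for 0.525 to 1.59 CPM. The targeted gene, Apoe, matched the labels: its mean was 481 ± 45.7 CPM over the wildtype and 5.81 ± 2.95 CPM over the APOE-KO libraries (SD, n = 6 each). Itgax, which encodes CD11c, was at 278 ± 54.0 and 298 ± 36.9 CPM (edgeR adjusted p = 0.841). A principal component analysis of the 500 genes with the largest variance put APOE-KO library 5 farthest out on the first component, wildtype library 1 on the second and wildtype library 3 on the third. The ribosomal RNA gene Rn45s took 32.2% of counts in wildtype library 1 and 2.71% in wildtype library 3, the highest and lowest shares of the 12 libraries. Several estimates moved when 1 of these 3 libraries was left out, and those values stand beside the genes. Of the 32 genes, 7 overlap another gene on their own strand and 11 a gene on the other strand, and the counting could have split or shared reads between them. Strand could separate only the latter.

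None of the 32 genes was higher and none was lower in APOE-KO at an adjusted p under 0.05 in edgeR's quasi-likelihood test. Over all 10714 genes, 1.08% were called higher and 0.411% lower. At an unadjusted p under 0.05 the test named 2 of the 32, Mcm6 and Cdk1, both with lower means in APOE-KO, against 12.1% of all genes in either direction. DESeq2 gave an adjusted p for 29 of the 32, with none for Tk1, Aurkb and Bub1. Of these 29 it called 1 lower, Mcm6, and 0 higher, where it called 1.11% of all genes with an adjusted p lower and 2.40% higher. The tool limma-voom called 0 of the 32 and 1.56% of all genes in either direction. The 2 genotypes did not separate without overlap for any of the 32 genes, against 1.77% of all genes that did. The median log2 fold change, APOE-KO over wildtype, was -0.09 over the 32 genes and -0.02 over all genes. Of the 32 estimates 20 were negative (62.5%), against 52.8% of all genes. In size, 1 of 32 estimates (3.1%) exceeded 0.5, against 15.8% of all genes.

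The intervals say how large a difference these libraries leave room for. For 27 of the 32 genes the 95% interval of the difference lay within 2-fold either way, the exceptions being Tk1, Cdk1, Aurkb, Bub1 and Stmn1. For 15 genes it lay within 1.5-fold, 9 of them replication genes and 4 of them mitosis genes.

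**Figure D1:**
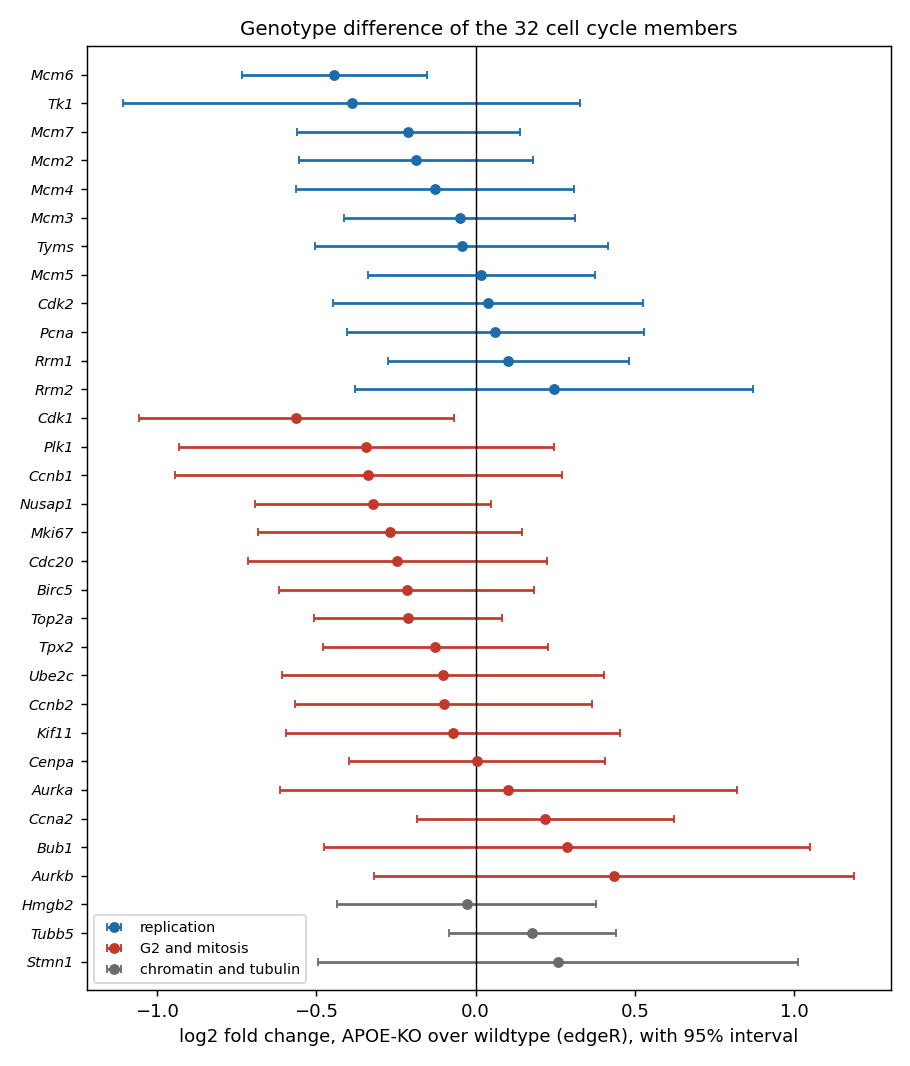
Log2 fold change of each of the 32 genes, APOE-KO over wildtype, as fitted by edgeR, with bars for the 95% interval (n = 6 per genotype); colours give the class. Most intervals cross 0, and the exceptions are Mcm6 (-0.44) and Cdk1 (-0.56), neither past the adjusted threshold.

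Among the helicase subunits, 5 of 6 estimates were negative and none passed the test. Mcm6 (chr1:128331590-128359664, minus strand, GRCm38), whose promoter with its 5 E2F matches is printed above, had the smallest p of the 32 genes. Its level was 74.9 CPM in the lowest, 86.3 in the median and 114 in the highest wildtype library. In APOE-KO it was 60.7 in the lowest, 66.4 in the median and 75.6 in the highest library. The groups touched at 1 point: 5 of the 6 APOE-KO libraries lay below every wildtype library, and APOE-KO library 6 lay just above wildtype library 1. The means were 90.4 ± 14.2 and 66.7 ± 5.02 CPM (SD, n = 6 each), a log2 fold change of -0.44 ± 0.14 (SE, 95% interval -0.73 to -0.15, edgeR adjusted p = 0.144). DESeq2 gave -0.45 with an adjusted p of 0.0447, and limma-voom an adjusted p of 0.123. Over all 12 other settings the adjusted p ran from 0.0447 to 0.999, with 1 library left out from 0.102 to 0.256, and the estimate stayed between -0.53 and -0.35. Without the 3 libraries that stand apart it was -0.38.

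The other subunits of the same ring did not share the size of the Mcm6 difference. Mcm7 (chr5:138164583-138172422, minus strand) ran from 74.6 through a median of 98.3 to 131 CPM in wildtype and from 64.0 through 83.6 to 129 in APOE-KO, a log2 fold change of -0.21 ± 0.17 (edgeR adjusted p = 0.682). The 2 highest values were those of wildtype library 1 and APOE-KO library 2. Below every wildtype library lay 2 APOE-KO libraries, and the other 4 overlapped. Mcm7 hosts the microRNA genes Mir106b, Mir25 and Mir93 on its own strand and overlaps Ap4m1 and Cops6 on the other, and the sources used here do not say whether counting used strand, so its counts are uncertain. Mcm2 was at 45.5 ± 8.99 and 40.1 ± 7.28 CPM (log2 fold change -0.19 ± 0.18). Mcm3, at 130 ± 42.9 and 126 ± 19.0 CPM, and Mcm5, at 85.1 ± 25.4 and 86.6 ± 10.1 CPM, had log2 fold changes of -0.05 ± 0.18 and 0.02 ± 0.17. Mcm4 had the widest split in spread of the helicase genes: its wildtype libraries ran from 40.9 to 163 CPM and its APOE-KO libraries only from 76.1 to 97.2. Its log2 fold change was -0.13 ± 0.21, with -0.28 without wildtype library 1 and 0.09 without wildtype library 3.

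Pcna (chr2:132249162-132253314, minus strand), the sliding clamp of DNA polymerases, ran from 18.0 through a median of 37.9 to 47.3 CPM in wildtype. In APOE-KO it ran from 24.6 through 34.0 to 52.2 CPM. The ranges lay nearly on top of each other, and the log2 fold change was 0.06 ± 0.23 (95% interval -0.40 to 0.53, edgeR adjusted p = 0.957). Cdk2, the kinase of S phase entry, was at 24.7 ± 7.36 and 25.7 ± 7.37 CPM (0.04 ± 0.24). Its gene overlaps Pmel on the other strand.

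Of the 4 genes of nucleotide supply, 2 had negative and 2 positive estimates, and none passed the test. Ribonucleotide reductase makes deoxyribonucleotides. Its large subunit gene, Rrm1, was at 40.1 ± 9.55 and 43.2 ± 7.13 CPM, and its small subunit gene, Rrm2, at 24.9 ± 11.0 and 30.0 ± 11.7 CPM. The log2 fold changes were 0.10 ± 0.18 and 0.25 ± 0.30. The Rrm2 value was 0.07 without wildtype library 1 and 0.43 without wildtype library 3. Tyms, thymidylate synthase, was at 24.9 ± 7.64 and 24.0 ± 3.49 CPM (-0.04 ± 0.22). Tk1, the salvage kinase for thymidine, was at 13.2 ± 7.53 and 10.2 ± 3.77 CPM, and its estimate of -0.39 ± 0.35 rested on wildtype library 3. Afmid overlaps it on the other strand. Wildtype library 3 held 28.5 CPM while the other 5 wildtype libraries held 9.50 to 11.2, and without it the log2 fold change was 0.027.

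Cdk1 (chr10:69335146-69352938, minus strand), the kinase that drives entry into mitosis, had the largest difference of the 32 genes in size. It ran from 47.3 through a median of 73.5 to 190 CPM in wildtype and from 45.9 through 61.9 to 77.5 in APOE-KO. A single library, wildtype 3, held the value of 190 CPM, and the next, wildtype 4, held 103. The means were 91.6 ± 51.4 and 62.6 ± 11.4 CPM, a log2 fold change of -0.56 ± 0.24 (95% interval -1.06 to -0.07, edgeR adjusted p = 0.331). Without wildtype library 3 the log2 fold change was -0.20 and the adjusted p 0.685, and without all 3 libraries that stand apart it was -0.37 (adjusted p = 0.379).

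The cyclins that partner this kinase gave estimates of both signs, and none passed the test. Ccnb1, cyclin B1, was at 22.4 ± 7.14 CPM in wildtype and 17.9 ± 8.70 in APOE-KO (log2 fold change -0.34 ± 0.29, and -0.59 without APOE-KO library 5). Ccnb2, cyclin B2, was at 32.0 ± 9.24 and 30.0 ± 8.03 CPM (-0.10 ± 0.23). Ccna2, cyclin A2, which also serves S phase, had an estimate of the other sign, at 34.9 ± 9.90 and 40.9 ± 5.11 CPM (0.22 ± 0.20). Ccna2 overlaps Exosc9 on the other strand.

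Mki67 and Top2a are the usual marks of cycling cells, the first a coat protein of mitotic chromosomes and the second a topoisomerase that untangles them. Mki67 (chr7:135689784-135716361, minus strand) ran from 49.7 through a median of 80.4 to 103 CPM in wildtype and from 33.3 through 64.0 to 85.9 in APOE-KO. Its log2 fold change was -0.27 ± 0.20 (95% interval -0.68 to 0.15, edgeR adjusted p = 0.653), and -0.14 without APOE-KO library 5. Only APOE-KO library 5 lay below all wildtype libraries. Top2a (chr11:98992943-99024189, minus strand) ran from 149 through 190 to 275 CPM in wildtype and from 146 through 162 to 204 in APOE-KO. Its log2 fold change was -0.21 ± 0.14 (-0.51 to 0.08, edgeR adjusted p = 0.609). For both genes the highest library was wildtype 6 and the lowest was APOE-KO 5. Both genes were lowest of their own genotype in wildtype library 3, where Cdk1 was highest.

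**Figure D2:**
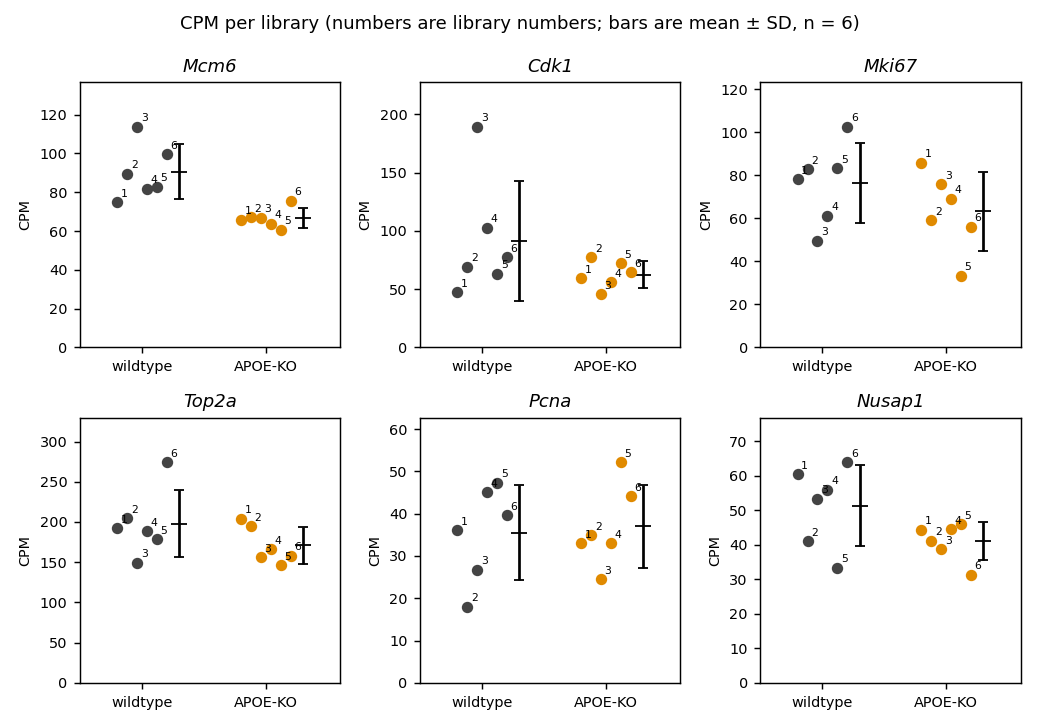
CPM of 6 of the genes in each library, with points numbered by library and bars for the mean and SD (n = 6 per genotype); each vertical axis starts at 0. Of these 6 genes Mcm6 has the lowest coefficient of variation among APOE-KO libraries (7.53%, from 60.7 to 75.6 CPM), and the Cdk1 mean in wildtype is pulled up by library 3 at 190 CPM.

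None of the 3 spindle genes passed the test, and all 3 estimates were negative. Nusap1 (chr2:119618298-119651244, plus strand), which bundles spindle microtubules, had the third smallest p. It ran from 33.4 through a median of 54.7 to 64.1 CPM in wildtype and from 31.4 through 42.8 to 46.0 in APOE-KO. The highest APOE-KO library lay below 4 wildtype libraries, but wildtype libraries 2 and 5 fell inside the APOE-KO range. The log2 fold change was -0.32 ± 0.18 (95% interval -0.69 to 0.05, edgeR adjusted p = 0.491), and Oip5 overlaps the gene on the other strand. Tpx2, which activates Aurora A on the spindle, was at 42.6 ± 7.15 and 39.0 ± 6.00 CPM. Kif11, the motor that pushes spindle poles apart, was at 20.0 ± 6.69 and 18.9 ± 2.85 CPM. Their log2 fold changes were -0.13 ± 0.17 and -0.07 ± 0.25.

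Mitotic kinases scattered on both sides of 0. Plk1 (chr7:122159439-122169873, plus strand), polo-like kinase, ran from 22.4 through a median of 47.6 to 72.6 CPM in wildtype and from 14.2 through 38.3 to 53.0 in APOE-KO. Only APOE-KO library 3 was below every wildtype library, and the log2 fold change was -0.34 ± 0.29 (95% interval -0.93 to 0.25, edgeR adjusted p = 0.701), and -0.14 without wildtype library 3. Aurka, Aurora A of the centrosome, was at 14.9 ± 11.1 and 16.4 ± 3.60 CPM (0.10 ± 0.35). Its value was 0.61 without wildtype library 3 and -0.07 without wildtype library 1. Aurkb, Aurora B of the chromosome passenger complex, was at 8.93 ± 5.08 and 12.3 ± 2.44 CPM (0.43 ± 0.36). Wildtype library 1 held 3 counts of Aurkb, 1.59 CPM, which is the detection floor, and without that library the log2 fold change was 0.24. Bub1, a kinase of the spindle checkpoint, was at 9.63 ± 4.11 and 11.6 ± 4.86 CPM (0.29 ± 0.37, and 0.11 without wildtype library 3).

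The remaining mitosis genes act at the kinetochore and at anaphase, and none passed the test. Birc5, survivin, a passenger protein beside Aurora B, was at 96.4 ± 32.4 and 83.4 ± 20.4 CPM (log2 fold change -0.22 ± 0.19, and -0.02 without wildtype library 3). Cenpa, the histone variant of centromeres, had the smallest difference of all 32 genes, at 63.0 ± 19.4 and 63.2 ± 15.8 CPM. The anaphase-promoting complex marks cyclins for destruction with the help of Cdc20, its activator, and Ube2c, its ubiquitin-conjugating enzyme. Cdc20 was at 39.1 ± 13.2 and 33.0 ± 8.95 CPM (-0.25 ± 0.23) and Ube2c at 44.0 ± 21.2 and 41.6 ± 8.56 CPM (-0.10 ± 0.25). The Ube2c value was 0.13 without wildtype library 3 and -0.24 without wildtype library 1. On the other strand Cdc20 overlaps Elovl1 and Ube2c overlaps Tnnc2.

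Hmgb2, a DNA-bending chromatin protein, was at 150.5 ± 39.4 and 147 ± 40.0 CPM (log2 fold change -0.03 ± 0.20), and it was -0.15 when wildtype library 3 was left out and 0.11 when APOE-KO library 5 was. In each genotype 1 library stood low, wildtype 3 at 79.2 CPM and APOE-KO 5 at 75.4 CPM, and the other 10 libraries held at least 138 CPM. Stmn1 (chr4:134468320-134473843, plus strand), stathmin, which destabilises microtubules, had the largest spread within genotypes of the 32 genes, a pooled SD of 0.93 on the log2 CPM scale. It ran from 2.12 through a median of 14.1 to 27.6 CPM in wildtype and from 9.96 through 17.5 to 29.2 in APOE-KO, and its log2 fold change was 0.26 ± 0.37 (edgeR adjusted p = 0.849). Its lowest value came from 4 counts in wildtype library 1. Without that library the log2 fold change was 0.06, and without wildtype library 3 it was 0.55. Tubb5 (chr17:35833921-35838306, minus strand), a beta-tubulin, ran from 392.5 through 536 to 701 CPM in wildtype and from 534 through 613 to 671.5 in APOE-KO. The APOE-KO range lay wholly inside the wildtype range, and the log2 fold change was 0.18 ± 0.13 (edgeR adjusted p = 0.628).

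Replication and mitosis genes were then set against each other. The median log2 fold change was -0.05 over the 12 replication genes, 7 of them negative, and -0.13 over the 17 mitosis genes, 12 of them negative. Leaving out each library in turn moved the first median between -0.13 and 0.05 and the second between -0.22 and -0.09. Neither class held a gene past the threshold, so the genotype comparison gave no gene by which the classes could be told apart.

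**Figure D3:**
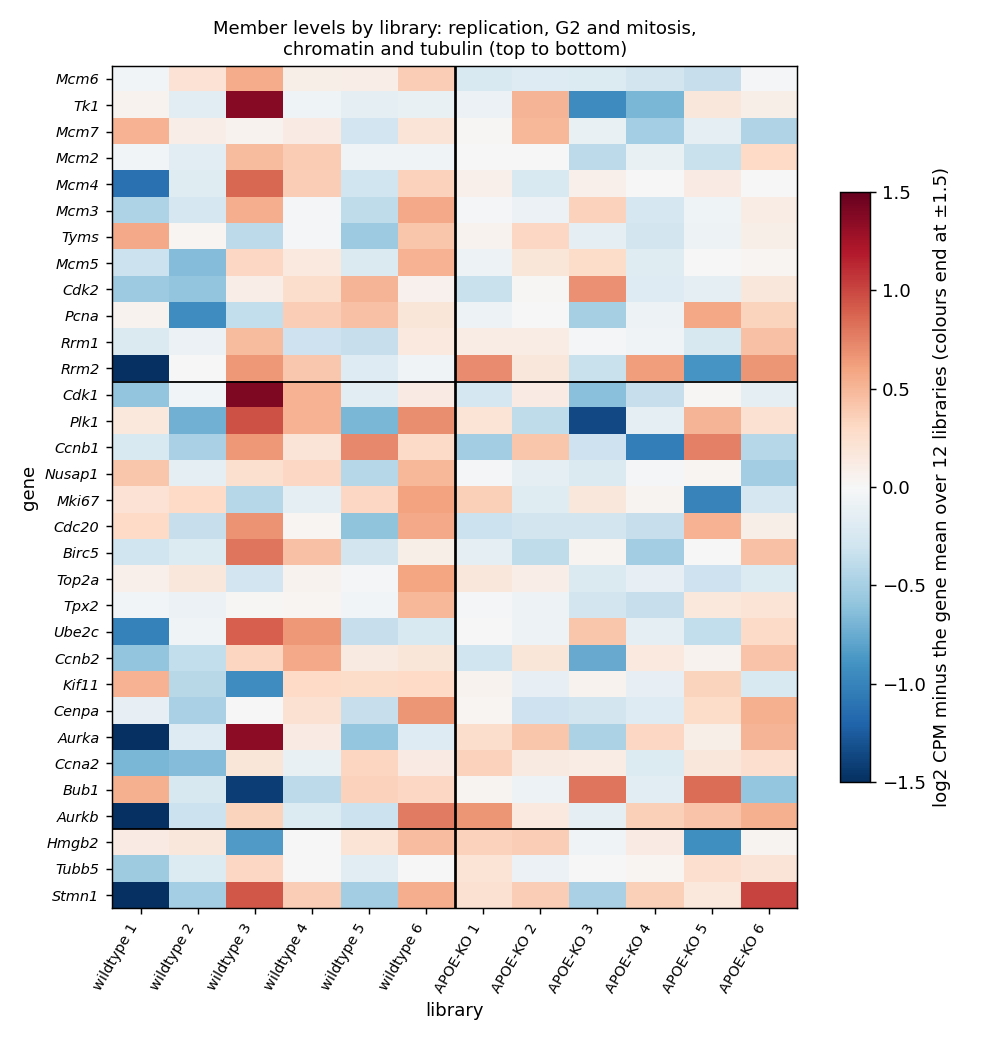
Log2 CPM of each gene minus its mean over the 12 libraries, genes in rows by class and libraries in columns, colours ending at ±1.5. Mostly above the gene means are wildtype libraries 3 (24 genes above), 4 (22) and 6 (26) and APOE-KO library 6 (22). Mostly below are wildtype libraries 1 (12 genes above), 2 (6) and 5 (10) and APOE-KO libraries 3 (10) and 4 (8).

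Replication and mitosis genes were also compared library by library. For each library the log2 CPM of every gene was taken as a deviation from its mean over the 12 libraries and averaged over a class. The replication mean and the mitosis mean lay on the same side of 0 in 10 of 12 libraries, all 6 wildtype libraries included. They were 0.39 and 0.28 in wildtype 3, 0.22 and 0.35 in wildtype 6, and 0.14 and 0.18 in wildtype 4. They were -0.28 and -0.30 in wildtype 1, -0.23 and -0.25 in wildtype 2, and -0.12 and -0.10 in wildtype 5. The wildtype libraries thus fell into 3 above and 3 below the gene means in both classes. In APOE-KO the means were 0.01 and 0.03 in library 1, 0.11 and -0.03 in library 2, and -0.10 and -0.20 in library 3. They were -0.17 and -0.17 in library 4, -0.11 and 0.15 in library 5, and 0.15 and 0.07 in library 6. The APOE-KO libraries stayed nearer to 0, and library 5 was the one that parted the classes most, with its replication mean 0.26 below its mitosis mean.

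Depth moved with these means in wildtype, and more loosely in APOE-KO. The mean deviation of all 32 genes was -0.36 in wildtype library 1, -0.23 in library 2 and -0.11 in library 5, which held 2381477, 2971663 and 3510653 counts. It was 0.30 in library 6, 0.16 in library 4 and 0.31 in library 3, which held 3604641, 3836808 and 4898360 counts. The 3 wildtype libraries below the gene means were thus the 3 with the fewest counts. Library 1, the lowest, had the largest share of Rn45s and library 3 the smallest. Libraries 5 and 6, on opposite sides of 0, were close in counts, and Rn45s was higher in library 6 (16.4%) than in library 5 (14.8%). In APOE-KO the lowest mean over the 32 genes, -0.16 in library 3, went with the fewest counts, 3175135, and the largest share of Rn45s, 21.6%. The highest, 0.13 in library 6, went with the most counts, 4497466. Between them the order was looser, with 0.04 in library 2 (3328956 counts) and -0.14 in library 4 (3771980 counts). The part of depth and of ribosomal RNA in the class means was not tested.

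**Figure D4:**
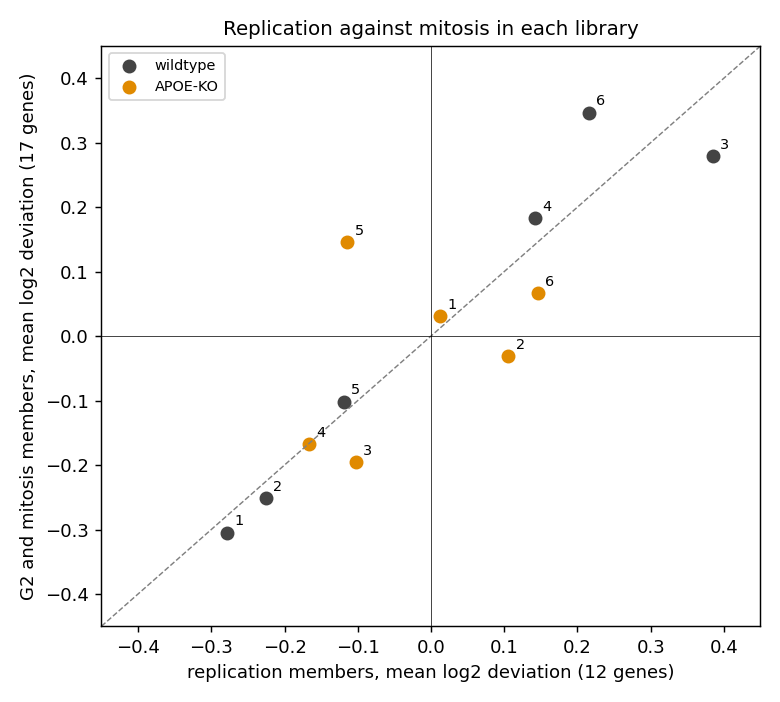
Mean log2 deviation of the 17 G2 and mitosis genes against that of the 12 replication genes, 1 point per library, numbered within genotype; the dashed line marks equal deviations. Wildtype libraries spread along the line from -0.30 to 0.39, and APOE-KO library 5 lies farthest from it.

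The SD of these class means over 6 libraries was 0.27 in wildtype and 0.13 in APOE-KO for replication, and 0.28 and 0.13 for mitosis. Gene by gene, the SD of log2 CPM was larger in wildtype for 27 of the 32 genes, against 56.7% of all tested genes. The median SD of the 32 genes was 0.45 in wildtype and 0.32 in APOE-KO, where the medians over all genes were 0.41 and 0.37. Wildtype library 3 was the highest wildtype library for 14 of the 32 genes, and wildtype library 1 the lowest for 13. Without wildtype library 1 the SD was still larger in wildtype for 27 of the 32 genes (49.0% of all genes). Without wildtype library 3 it was larger in wildtype for 23 (49.1% of all genes). Without wildtype libraries 1 and 3 the count was 20 of 32 (37.2% of all genes). Without these 2 and APOE-KO library 5 it was 22 of 32 (46.9% of all genes). The genes share libraries, so these counts are a description of 12 libraries and carry no test.

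Beyond counting error, the biological coefficient of variation of the 32 genes had a median of 25.8%, from 16.8% for Tubb5 to 42.3% for Stmn1, against a median of 27.4% over all genes. Set against the trend at the same level of expression, 20 of the 32 genes (62.5%) varied more than the trend, compared with 39.3% of all genes. Plk1 and Cdk1 exceeded it most, at 1.4 and 1.39 times the trend. Mcm6 was the steadiest by within-genotype SD, at 0.17 on the log2 scale, and its coefficient of variation was 0.83 times the trend.

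In some libraries the deviations of the 32 genes went with transcript length, a pattern noticed after the values were seen. The longest annotated coding transcript of these genes runs from 1060 bases (Stmn1) to 10061 bases (Mki67). For each library, the deviation of a gene from the mean of the other 5 libraries of the genotype was set against log2 length. Across the 32 genes Pearson's r was -0.47 in wildtype 4, -0.43 in wildtype 3 and -0.52 in APOE-KO 6, where longer genes tended to lie below shorter ones. It was 0.53 in APOE-KO 3, 0.41 in wildtype 1 and 0.37 in wildtype 2, where longer genes tended to lie above shorter ones. The deviations of a gene sum to 0 over the libraries of a genotype. Values of r below 0 in some libraries therefore force values above 0 in others, and the opposite signs are not separate observations. Long genes did not move together: in wildtype 3 Kif11 (4819 bases) was at -1.12 and Cdk1 (4375 bases) at 1.44. In wildtype 1 these were at 0.61 and -0.95. In the other 6 libraries r lay between -0.26 and 0.29. Across 10200 genes with a length, r had the same sign in the 6 libraries named. It was -0.15 in wildtype 4, -0.15 in wildtype 3, -0.11 in APOE-KO 6, 0.031 in APOE-KO 3, 0.097 in wildtype 1 and 0.14 in wildtype 2. In the other 6 libraries it ran from -0.12 in APOE-KO 5 to 0.12 in APOE-KO 4. In wildtype 6 and APOE-KO 2 its sign was opposite to that across the 32 genes. These are correlations across genes within a library, genes are not independent replicates, and the part that length plays in any level was not tested.

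**Figure D5:**
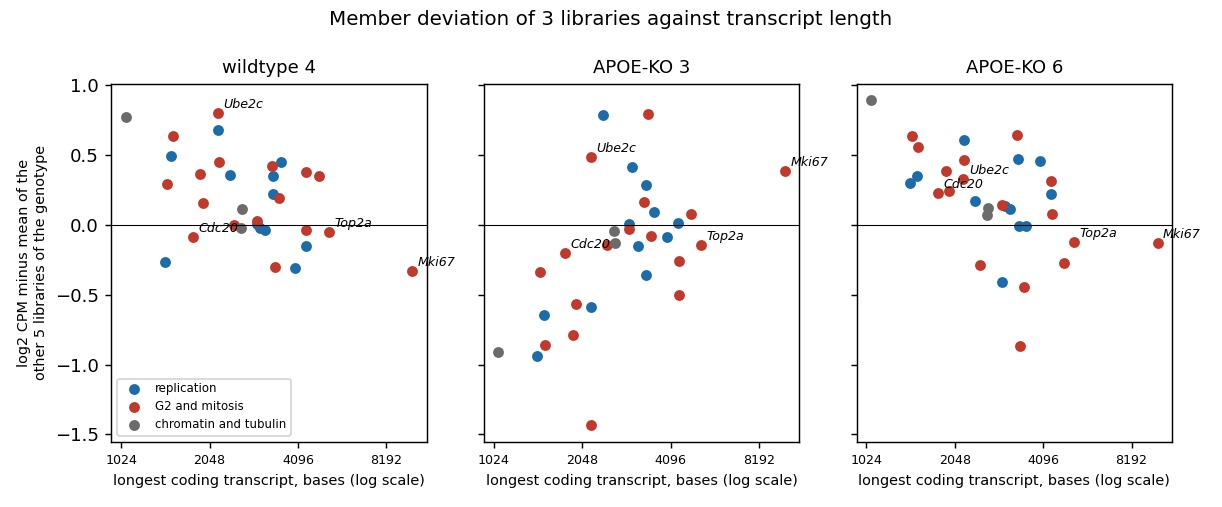
Deviation of each of the 32 genes from the mean of the other 5 libraries of the genotype (log2 CPM) against its longest coding transcript (log scale), in the 3 libraries with the largest correlations. Mki67, the longest, is low in wildtype 4 (-0.33) and APOE-KO 6 (-0.13) and high in APOE-KO 3 (0.38). Top2a, the next longest, is below 0 in each of them (-0.06, -0.12 and -0.15 in the same order).

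Outside the 32 genes, the lists of replication, mitosis and G1 entry held no call either. Over all genes, 1.08% were called higher, 0.411% were called lower and 12.1% had an unadjusted p under 0.05. Of 53 tested genes of replication (licensing, origin firing, polymerases, checkpoint), none was called in either direction and 4 had an unadjusted p under 0.05. The 2 with the smallest p were Cdc7, the kinase that fires licensed origins, at 23.2 ± 4.68 and 13.3 ± 5.57 CPM (log2 fold change -0.81 ± 0.28, edgeR adjusted p = 0.191), and Gmnn, geminin, which blocks relicensing, at 23.2 ± 2.89 and 31.7 ± 7.38 CPM (0.46 ± 0.20, adjusted p = 0.346). Of 64 tested genes of mitosis, none was called and 1 had an unadjusted p under 0.05. The 2 with the smallest p were Prc1, which bundles the central spindle, at 39.4 ± 9.46 and 27.9 ± 7.00 CPM (-0.50 ± 0.21, adjusted p = 0.313), and the kinesin gene Kif20b, at 36.4 ± 20.5 and 21.6 ± 10.5 CPM (-0.74 ± 0.36, adjusted p = 0.417). Promoters of these longer lists split in E2F and CHR as those of the 32 genes did. E2F matches were in 29 of 43 replication genes (67.4%) and 25.9% of mitosis genes, against 10.9% of all genes. CHR matches were in 23.3% of replication genes and 40 of 58 mitosis genes (69.0%), against 21.7% of all genes. CCAAT was less common in replication genes here, at 53.5%, with 69.0% of mitosis genes and 41.1% of all genes. Of 11 tested genes of G1 and S phase entry, none was called and 1 had an unadjusted p under 0.05, with Tfdp1, a partner of E2F factors, at 15.5 ± 4.51 and 23.5 ± 5.79 CPM (0.59 ± 0.25, adjusted p = 0.340) and E2f4 at 23.2 ± 13.1 and 16.8 ± 3.32 CPM (-0.47 ± 0.29, adjusted p = 0.553).

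Of the other cell cycle lists, that of genes that hold the cycle back held the only call, 1 of 22 tested higher, against 1.08% of all genes. At an unadjusted p under 0.05 there were 5 of 22, 4 higher and 1 lower, against 12.1% of all genes in either direction. Ccng2, cyclin G2, an atypical cyclin found in cells leaving the cycle, rose in APOE-KO. It was at 62.7 CPM in the lowest and 110 in the highest wildtype library and at 103 in the lowest and 144 in the highest APOE-KO library. The groups overlapped through wildtype library 2 and APOE-KO library 2. The means were 85.1 ± 16.0 and 127 ± 17.2 CPM, a log2 fold change of 0.57 ± 0.15 (SE, 95% interval 0.27 to 0.88, edgeR adjusted p = 0.0467). The direction held with each library left out (0.50 to 0.66). The call did not hold without wildtype library 1, 4, 5 or 6 or without APOE-KO library 1, 3, 4 or 6, with adjusted p up to 0.136. It was also lost with a replicate block (log2 fold change 0.59, adjusted p = 0.131) and without the 3 libraries that stand apart (0.49, adjusted p = 0.0943). With the mean of epithelial markers as covariate the log2 fold change was 0.68 and the adjusted p 0.625. Epithelial marker sums were 67.5 to 118 CPM in wildtype and 8.69 to 83.6 in APOE-KO, so this covariate partly overlaps with genotype. With B and T cell markers as covariates the log2 fold change was 0.51 and the adjusted p 0.197.

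Cdkn1a, the p21 inhibitor of cyclin-dependent kinases, had an estimate of the same sign that did not pass, at 194 ± 33.6 and 274 ± 40.6 CPM (log2 fold change 0.50 ± 0.14, edgeR adjusted p = 0.0754). Cdkn2d, the p19 inhibitor of CDK4 and CDK6, had the opposite sign, at 36.8 ± 11.6 and 21.6 ± 6.18 CPM (-0.78 ± 0.24, adjusted p = 0.128). Cdkn2a, at 2.79 ± 1.93 and 6.26 ± 2.62 CPM (1.19 ± 0.54, adjusted p = 0.376), and Cdkn2c, at 7.75 ± 2.43 and 12.4 ± 3.03 CPM (0.67 ± 0.32, adjusted p = 0.406), encode other inhibitors of CDK4 and CDK6 and had positive estimates. Pkmyt1, which holds CDK1 inactive, was the 1 gene of the 22 whose groups did not overlap, against 1.77% of all genes. It was at 11.5 ± 2.88 and 16.7 ± 2.65 CPM, but its edgeR adjusted p was 0.434. These 5 were chosen after their values were seen. Of the 22 estimates, 7 were negative (31.8%), against 52.8% of all genes.

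Marker genes show what else differed between the preparations, from 14 lists of 8 genes each. For comparison, edgeR called 1.08% of all genes higher and 0.411% lower in APOE-KO. Of the 8 markers of mature migratory dendritic cells, 5 were higher in APOE-KO, with a summed level of 3349 to 5206 CPM in wildtype and 4844 to 7575 in APOE-KO. Of the 8 markers of plasmacytoid dendritic cells, 4 were lower, with sums of 1312 to 2867 and 1022 to 1370 CPM. Of 5 tested epithelial markers 1, Cdh1, was lower, with sums of 67.5 to 118 and 8.69 to 83.6 CPM. Of 7 tested B cell markers 1, Fcer2a, was lower, with sums of 692 to 926 and 568 to 717 CPM. Macrophage markers went both ways, with 2 of 8 higher and 2 lower and sums of 999.8 to 1322 and 1020 to 1248 CPM. Bulk RNA does not tell shares of cells from RNA per cell here either. The part of these cells in the levels of the cell cycle genes was not tested beyond the covariates named.

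The lists of germinal centre B, plasma, T, and NK and cytotoxic cells held no call in edgeR, with 3, 0, 0 and 2 genes of 7 tested each at an unadjusted p under 0.05. Over all genes the share at such a p was 12.1% in either direction. Germinal centre B cell markers summed to 171 to 290.0 CPM in wildtype and 145 to 249 in APOE-KO, with Mef2b at 0 in every library. Plasma cell markers summed to 462 to 577 and 354 to 672 CPM, T cell markers to 262 to 340 and 266 to 393 CPM, and markers of NK and cytotoxic cells to 160 to 381 and 109 to 276 CPM. No call was made either for the lists of dendritic cells (7110 to 9043 and 7098 to 9054 CPM) and of type 1 conventional dendritic cells (1200 to 1621 and 1092 to 1391 CPM), with 3 and 2 of 8 at an unadjusted p under 0.05. The same held for neutrophils (12.2 to 26.5 and 9.41 to 56.0 CPM) and for endothelial cells (138 to 236 and 119 to 153 CPM, Ccl21a at 0), with 0 of 3 and 3 of 6 tested at an unadjusted p under 0.05. No erythroid marker was tested, and 5 of them, Hbb-bs, Hbb-bt, Hba-a1, Hba-a2 and Car1, were at 0.

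Single genes were compared with Top2a across the 12 libraries on log2 CPM, 11 relations in all, and none passed after Benjamini-Hochberg adjustment. Mki67 came nearest, with Pearson's r = 0.74 (two-sided permutation p = 0.0077, adjusted p = 0.0847) and Spearman's rho = 0.76 (permutation p = 0.00512, adjusted p = 0.0563). Without wildtype library 6 and APOE-KO library 5, the 2 farthest from the Top2a median, r was 0.57. Within wildtype r was 0.85 (exact permutation p = 0.0361) and within APOE-KO 0.61 (exact permutation p = 0.2). Mcm6, by contrast, gave r = 0.30 (permutation p = 0.348, adjusted p = 0.477) and rho = 0.30 (permutation p = 0.345), and -0.24 without the same 2 libraries.

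Of the markers of cell types, Xcr1, a receptor of type 1 conventional dendritic cells, had the largest r with Top2a, at 0.63 (permutation p = 0.0274, adjusted p = 0.151), with rho = 0.48 (permutation p = 0.121). Without the same 2 libraries r was 0.44, within wildtype 0.49 and within APOE-KO 0.64 (exact permutation p = 0.375 and 0.182). Cd79a, of the B cell receptor, gave r = 0.47 (permutation p = 0.122, adjusted p = 0.268) and rho = 0.53. Its r was 0.63 within wildtype and 0.89 within APOE-KO (exact permutation p = 0.211 and 0.0292, not adjusted). Without the same 2 libraries it was 0.61. The smallest count of Cd79a in a library was 9. For Ccr7 of mature dendritic cells r was -0.49 and for Cd3e of T cells -0.49 (adjusted p = 0.268 for each). Ccr7 differed between the genotypes, and within them its r was -0.15 in wildtype and -0.55 in APOE-KO. For Cd3e r was -0.46 and -0.62 within the genotypes, but 0.15 over both without the same 2 libraries. Siglech of plasmacytoid dendritic cells, lower in APOE-KO, gave 0.27 over both genotypes, -0.02 within wildtype and -0.06 within APOE-KO. Jchain of plasma cells gave 0.27 over both genotypes, -0.22 within wildtype and 0.66 within APOE-KO. For Gzmb of cytotoxic cells r was 0.08. C1qb of macrophages, higher in APOE-KO, gave -0.30 over both genotypes, 0.03 within wildtype and 0.09 within APOE-KO.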

How the data were processed

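RNA from CD11c bead-enriched lymph node cells was sequenced in 12 libraries, 6 wildtype and 6 APOE-KO. Libraries were made with a Lexogen 3' FWD kit, as the labels' protocols state. The table deposited by the authors holds whole-number read counts per gene symbol, not normalised. The submitters' processing notes name mm10, DESeq2 1.4, R 4.1.0, featureCounts 1.5.1 and STAR 2.7.8a. The sources used here do not give the annotation, the strand setting, the use of molecular identifiers or the treatment of reads with several matches. Columns were matched to samples by their short descriptions.

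The test was edgeR 4.0.16 under R 4.3.3: filterByExpr (minimum count 10), TMM scaling, glmQLFit and glmQLFTest on genotype, all 12 libraries, Benjamini-Hochberg adjustment over 10714 genes, threshold 0.05. CPM use TMM-scaled library sizes, log2 CPM a prior count of 2, and intervals are 95%. Correlations used 100000 permutations, or all orderings of 6 libraries; 1 of the 11 relations is not reported here. Positions are from GENCODE vM21 (GRCm38, the assembly mm10 names), promoters from RefSeq. The floor of 3 counts covers counting error only.

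Alternatives were DESeq2 size factors, upper quartile scaling, Rn45s removed, no filter or at least 1 CPM in 6 libraries, DESeq2 1.42.0, limma-voom (limma 3.58.1), robust dispersion, a replicate block, marker covariates, and libraries left out. The main test had no replicate block. No replicates agreed within sampling noise.

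Genes and lists were chosen with earlier results of these data known. Every one of the 32 genes is named. The range and median per genotype are given for the 8 with the smallest p, for Mki67, Top2a, Pcna and Mcm6, and for the largest and smallest within-genotype SD. Of each other cell cycle list, called genes are named, or the 2 with the smallest p.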

Additional observations from a re-analysis of the deposited data

Results flagged for a closer look

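In 9 of 90 groups of 6 libraries, 1 library stood farther from the rest than Dixon's 95% limit for 6 values allows. The limit was applied on the log2 scale. Chance alone gives about 1 such group in 20. Of the 64 groups of the 32 cell cycle genes, 7 held such a library. The values printed below are CPM, on which the gaps can look smaller or larger than on the log2 scale.

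Wildtype library 3 stood high for Tk1, the thymidine kinase, at 28.5 (others 9.50 to 11.2), and low for Hmgb2, at 79.2 (others 143 to 198). Wildtype library 1, the shallowest, stood low for Rrm2, at 6.90 (others 21.7 to 39.2), and for Aurkb, at 1.59 (others 7.47 to 16.7), the latter from 3 counts. Wildtype library 6 stood high for the spindle gene Tpx2, at 57.0 (others 38.0 to 41.2).

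In APOE-KO, library 5 stood low for Hmgb2, at 75.4 (others 138 to 186), and for the kinase inhibitor Cdkn2d, at 10.2 (others 20.6 to 26.7). Library 2 stood low for the helicase gene Mcm4, at 76.1 (others 88.9 to 97.2). Library 3 stood low for the transcription factor E2f4, at 10.7 (others 15.8 to 19.7).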

How the results depend on the processing

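The count of the 32 genes called higher was 0 in each of the 12 other settings and with each library left out. The count called lower was 0 except with DESeq2, where it was 1 (Mcm6) of 29 with an adjusted p. Over all genes 160 were called, 274 with DESeq2, 100 with the replicate block and 24 with the epithelial covariate, and 99 (without APOE-KO library 3) to 230 (without wildtype library 3) with 1 library left out. The replicate block called 0 of the 32 genes. Same-numbered libraries correlated at -0.077 to 0.018 in their deviations, none of 6 best with its own number, so the numbers are not treated as pairs. Other settings changed the sign of 14 genes, all with main estimates of at most 0.29 in size; none had passed the test, and the cause was not tested. With limma-voom the log2 fold changes were 0.060 for Tyms, -0.030 for Cdk2 and 0.079 for Kif11. With the replicate block they were 0.0013 for Mcm3 and 0.012 for Ube2c. With the epithelial covariate they were -0.24 for Pcna, 0.23 for Mcm4, -0.038 for Mcm5, -0.0031 for Rrm1, -0.025 for Cdk2, 0.0019 for Mki67, 0.11 for Ube2c, -0.056 for Bub1, -0.29 for Cenpa and 0.014 for Hmgb2. With B and T cell covariates they were -0.081 for Mcm5, 0.13 for Tyms, -0.0010 for Rrm1, -0.13 for Cdk2, -0.048 for Aurka, -0.15 for Cenpa, 0.10 for Kif11 and 0.25 for Hmgb2. Without the libraries that stand apart they were -0.15 for Pcna, 0.0061 for Mcm3, 0.014 for Tyms, -0.011 for Cdk2, 0.044 for Ube2c and -0.091 for Cenpa. With 1 library left out, 13 genes changed sign at least once, over ranges of -0.068 to 0.61 for Aurka, -0.20 to 0.030 for Ccnb2, -0.12 to 0.16 for Cdk2, -0.12 to 0.17 for Cenpa, -0.15 to 0.11 for Hmgb2, -0.21 to 0.026 for Kif11, -0.13 to 0.083 for Mcm3, -0.28 to 0.092 for Mcm4, -0.084 to 0.15 for Mcm5, -0.068 to 0.16 for Pcna, -0.54 to 0.027 for Tk1, -0.14 to 0.074 for Tyms and -0.24 to 0.13 for Ube2c. The median of replication genes ran from -0.13 to 0.05 and that of mitosis genes from -0.22 to -0.09. The median within-genotype SD of the 32 genes (0.42 on the log2 scale) ran from 0.42 to 0.43 over another prior count and 2 other scalings, and no relation with Top2a passed in any of these. The smallest count of a gene in 1 library was 3, so depth limits Aurkb and Stmn1 in wildtype library 1.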
